A study of Homo sapiens with 3 samples.

Results

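The mRNAs of 41 translation initiation factor genes were described in an eCLIP experiment on DDX6, of which 40 had a line among the 36817 gene identifiers of the count tables. They were taken by name: every gene of the eIF1, eIF2, eIF2B, eIF3, eIF4, eIF5 and eIF6 groups on a list of subunits, with the eIF4E-binding proteins. The list held 3 eIF1, 3 eIF2, 5 eIF2B, 13 eIF3, 13 eIF4, 3 eIF5 and 1 eIF6 genes. EIF4G1 was not analysed here in the counts and entered only through the peak lists.

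The material was MOLM-13, a human acute myeloid leukaemia cell line, with no genetic change or drug named in the labels. Cells were cross-linked with ultraviolet light, lysed and treated with RNase I. DDX6, an RNA helicase of the cytoplasmic granules called P-bodies, was then immunoprecipitated with an antibody to it, and RNA bound to it was sequenced in 2 libraries (IP replicates 1 and 2). A single input library served as the background. No IP with a control antibody was analysed here, and nothing in the labels says that the IPs came from separate cultures, so the p-values here cover the spread among the libraries alone, which may be technical.

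Translation initiation brings the small ribosomal subunit, the initiator tRNA and the mRNA together. eIF2 carries the initiator tRNA and eIF2B recharges it with GTP. eIF1 and eIF1A hold the small subunit open while it scans, and eIF3 is the large scaffold on which the other factors assemble. eIF4E binds the cap, eIF4G bridges cap and ribosome, and eIF4A unwinds the leader with the help of eIF4B and eIF4H. eIF5 triggers GTP hydrolysis on eIF2, eIF5B joins the large subunit, and eIF5A keeps elongation going at difficult peptide bonds. DDX6 is best known for repressing translation and promoting decay of the mRNAs it binds, which makes the messages of the initiation machinery a distinct class to look at among its RNAs.

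The libraries held 4643494 and 1244213 counted reads in IP replicates 1 and 2, and 7807540 in input. Exonic reads made up 67.6% and 62.6% in the IPs and 30.7% in input, so 778703 to 3139720 exonic reads stood behind each library. Markers were read for lineage, which does not identify the line itself. All 10 myeloid markers had reads in input (25 to 1875), while 7 of 10 markers of other cell types were at 0 there. Summed reads of the latter 10 were 101 and 14 in the IPs and 43 in input. COL1A1 gave most of them, with 82 and 10 in the IPs and 27 in input. That was above the myeloid marker ITGAM, with 26 and 6 in the IPs and 25 in input.

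As a class, the initiation factor mRNAs took about the same share of exonic reads in IP as in input. They held 0.892% and 0.817% of exonic reads in the IPs (0.855% ± 0.054, SD, n = 2), against 0.763% in input (95% exact binomial interval 0.752 to 0.774%, counting error only). Noncoding exons held 10.4% and 13.0% of all genes' exonic reads in the IPs and 29.1% in input, which raises such IP shares relative to input. Of coding and UTR reads alone, the members held 28010 of 2814534 and 6359 of 677325 in the IPs and 18260 of 1698393 in input. That was a smaller share in both IPs than in input. The shares of the groups did not move together. The eIF1 genes held 0.100% ± 0.019 of exonic reads in the IPs (SD, n = 2), against 0.0364% in input. The eIF3 genes held 0.363% ± 0.014 in the IPs and 0.290% in input, and the eIF4 genes 0.246% ± 0.009 in the IPs and 0.278% in input. EIF3A alone gave 3846 and 827 of the eIF3 group's 11717 and 2754 exonic reads in the IPs, and 700 of 6937 in input. The eIF2B genes were the least covered group of several subunits, with 0.0133% ± 0.0005 in the IPs and 0.0142% in input. Such shares are not corrected for transcript length and say nothing of molecules per cell, and in a lysate of many cells fewer expressing cells and less RNA per cell cannot be told apart.

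Over whole mRNAs, 2 messages stood well above the rest in the DDX6 IP, those of EIF3A and EIF1, and 1 well below, that of EIF5A. Exonic reads per gene were compared with edgeR's quasi-likelihood test on TMM-scaled counts, which places the typical gene near 0, with calls at a Benjamini-Hochberg adjusted p under 0.05 over the 10392 genes with enough reads. Of the 39 members tested, 5 were called higher in the IP (EIF3A, EIF1, EIF5B, EIF3D and EIF3G), 5 lower (EIF5A, EIF4E3, EIF1AX, EIF4H and EIF4EBP2) and 29 neither way. Over all genes tested, 16.7% were called higher and 11.4% lower, so the members' counts were near the background. The members' median log2 fold was -0.13, against 0.00 for all genes. For all 10 called members both IPs lay on the same side of input, as they did for most members not called. Such agreement, or a lack of overlap with input, here and below describes the values that gave the call and adds no support to it.

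**Figure D1:**
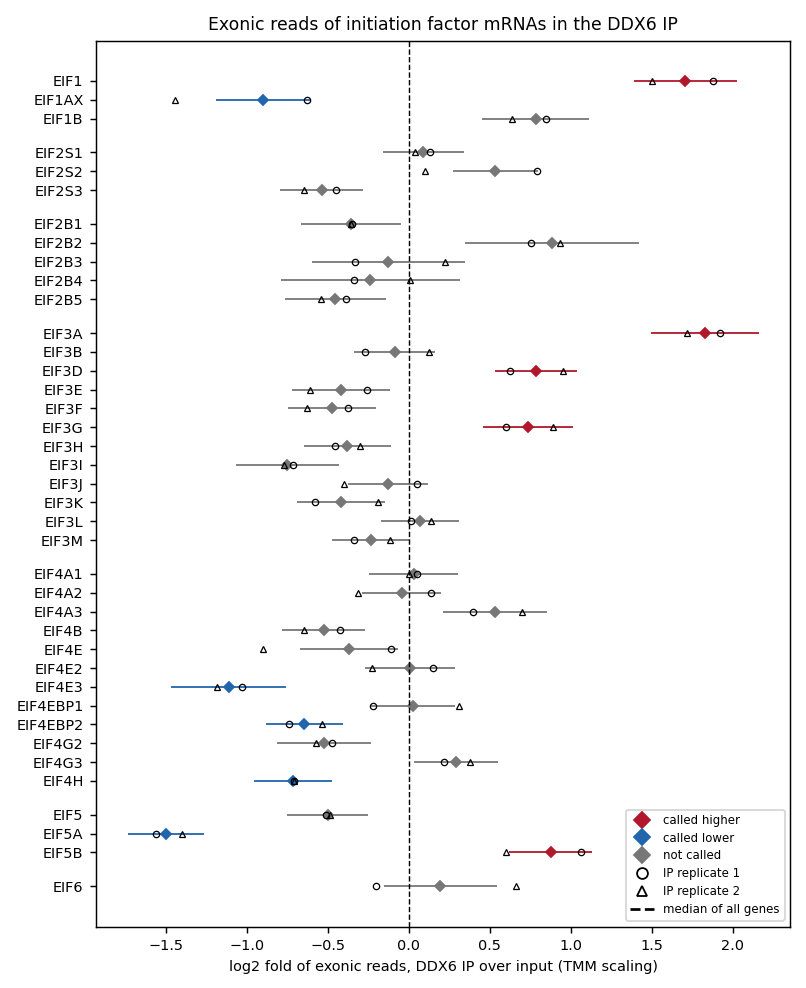
Log2 fold of exonic reads in DDX6 IP over input for the 39 tested members, by factor group; diamonds are the edgeR estimate with its standard error, circles and triangles the 2 IP libraries, and the dashed line the median of all genes. EIF3A (1.83) and EIF1 (1.71) lie farthest right and EIF5A (-1.50) farthest left, while with scaling to library size alone (all counted reads, intronic ones included, and no TMM), where the median gene is at 1.24, EIF5A is at -0.26.

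EIF3A encodes the largest subunit of eIF3, around which the rest of the complex is built. It had 3846 and 827 exonic reads in the IPs and 700 in input, or 1201 and 1044 CPM (counts per 1e6 scaled exonic reads) in the IPs against 317 CPM in input. Both IPs were far above input, and the IP mean of 1122 ± 111 CPM (SD, n = 2) came to a log2 fold of 1.83 ± 0.33 (SE; edgeR adjusted p = 1.26e-05).

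EIF1 encodes the small factor that guards the choice of the start codon. It had 3203 and 609 reads in the IPs and 600 in input, or 1000 and 768 CPM in the IPs against 271 CPM in input. Both IPs again lay above input, by a log2 fold of 1.71 ± 0.32 (SE; edgeR adjusted p = 2.07e-05). Its close paralog EIF1B stood at 58.4 and 50.5 CPM in the IPs and 32.1 CPM in input, also above input in both, but its log2 fold of 0.78 ± 0.33 missed the threshold (edgeR adjusted p = 0.068). The third gene of the group, EIF1AX, which encodes eIF1A, lay the other way at 58.4 and 32.8 CPM in the IPs and 90.9 CPM in input (log2 fold -0.90 ± 0.29, edgeR adjusted p = 0.015). Its IPs differed from each other more than those of EIF1, at -0.63 and -1.44 on the log2 scale, and replicate 2 rested on 26 reads.

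The other 3 messages called higher differed from input by less. EIF5B, the GTPase of subunit joining, had 307 and 222 CPM in the IPs and 146 CPM in input (log2 fold 0.87 ± 0.25, edgeR adjusted p = 0.0059). EIF3D, a peripheral eIF3 subunit with cap-binding activity of its own, had 205 and 257 CPM in the IPs and 133 CPM in input (log2 fold 0.79 ± 0.25, edgeR adjusted p = 0.013). EIF3G, an RNA-binding peripheral subunit, had 93.7 and 115 CPM in the IPs and 61.5 CPM in input (log2 fold 0.74 ± 0.28, edgeR adjusted p = 0.039). IP and input did not overlap for any of the 3.

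EIF5A, whose protein carries the modified residue hypusine, was the lowest member. It had 335 and 93 reads in the IPs and 687 in input, or 105 and 117 CPM in the IPs against 311 CPM in input, a log2 fold of -1.50 ± 0.24 (SE; edgeR adjusted p = 6.03e-07). The other 4 lower messages were EIF1AX, given above, and 3 of the eIF4 group. EIF4E3, a cap-binding paralog of eIF4E, had 21.2 and 18.9 CPM in the IPs and 44.3 CPM in input (log2 fold -1.11 ± 0.35, edgeR adjusted p = 0.012). EIF4H, a cofactor of the helicase eIF4A, had 121 CPM in both IPs and 199 CPM in input (log2 fold -0.71 ± 0.24, edgeR adjusted p = 0.019). EIF4EBP2, a repressor that holds eIF4E away from eIF4G, had 175 and 202 CPM in the IPs and 293 CPM in input (log2 fold -0.65 ± 0.24, edgeR adjusted p = 0.031). All 5 lower members were below input in both IPs, relative to the typical gene. With scaling to library size alone none of them was called lower and EIF5A alone kept a negative log2 fold (-0.26), but all 5 stayed under the median gene, which that scaling put at 1.24. It divides by all counted reads, of which exonic ones are a larger part in the IPs than in input. With exonic reads alone as the library size and no TMM, an alternative chosen after seeing the data, the median gene was at 0.15 and EIF5A (-1.36), EIF4E3 and EIF1AX were called lower, but EIF4H and EIF4EBP2 were not. DESeq2 called EIF3A and EIF1 higher and EIF5A lower and none of the other 7.

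**Figure D2:**
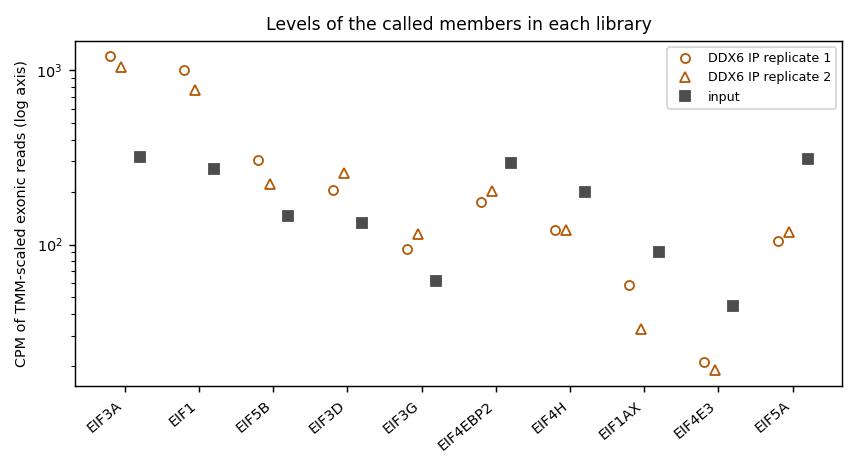
CPM of TMM-scaled exonic reads (log axis) of the 10 called members in IP replicate 1, IP replicate 2 and input. EIF3A stands at 1201 and 1044 CPM in the IPs against 317 in input and EIF5A at 105 and 117 in the IPs against 311 in input; with scaling to library size alone EIF5A alone among the 5 lower members keeps a negative log2 fold (-0.26).

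The groups differed in their medians, though each holds few genes that are no replicates of one another. The eIF1 median log2 fold was 0.78, eIF2 0.09, eIF2B -0.24, eIF3 -0.18, eIF4 -0.21 and eIF5 -0.50, and the single eIF6 gene was at 0.19. Within eIF2, EIF2S2, the beta subunit, was highest at 173 and 107 CPM in the IPs and 99.97 CPM in input. EIF2S3, the GTP-binding gamma subunit, was lowest at 334 and 291 CPM in the IPs and 457 CPM in input. Neither was called, nor was EIF2S1, the alpha subunit phosphorylated in the integrated stress response (log2 fold 0.09 ± 0.25). At an unadjusted p under 0.05 edgeR picked 1 eIF2 gene in each direction.

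No eIF2B gene was called, and none reached an unadjusted p under 0.05 in edgeR. DESeq2 called none either, but it gave EIF2B2 and EIF2B4 no adjusted p and so could not call them. The highest was EIF2B2 at 14.4 and 16.4 CPM in the IPs and 8.14 CPM in input (log2 fold 0.88 ± 0.54). The lowest was EIF2B5, the catalytic subunit, at 44.97 and 40.4 CPM in the IPs and 59.3 CPM in input (log2 fold -0.45 ± 0.31). Depth was low here, with 9 to 46 reads per library for EIF2B2, EIF2B3 and EIF2B4, and the log2 fold of EIF2B2, larger than that of EIF3D, missed the threshold at this depth (edgeR adjusted p = 0.22). The eIF2B median was -0.34 from IP replicate 1 and 0.01 from IP replicate 2.

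The eIF3 genes were split between EIF3A, EIF3D and EIF3G above and the rest near or under the typical gene. The 8 genes of the structural octamer (A, C, E, F, H, K, L and M) had a median log2 fold of -0.38 over the 7 tested, with EIF3A alone called. The 5 peripheral genes (B, D, G, I and J) had a median of -0.09, with 2 called higher. EIF3I, a peripheral WD-repeat subunit, was lowest of the group at 36.9 and 35.3 CPM in the IPs and 61.1 CPM in input (log2 fold -0.75 ± 0.32, edgeR adjusted p = 0.065). EIF3C had only 21 and 2 reads in the IPs and 8 in input and was not tested. It has a near-identical copy, EIF3CL, between which reads can be split, so its level is uncertain.

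Among the eIF4 genes the paralogs could be set side by side. EIF4A1 and EIF4A2, the helicases of cap-dependent initiation, were both at the typical gene, EIF4A1 with 515 and 497 CPM in the IPs and 496 CPM in input and EIF4A2 with 223 and 163 CPM in the IPs and 202 CPM in input. EIF4A3, which works in the exon junction complex and not in initiation, was the highest of the group at 52.2 and 64.4 CPM in the IPs and 39.4 CPM in input (log2 fold 0.53 ± 0.32, not called). The main cap-binding protein EIF4E had 64.0 and 36.6 CPM in the IPs and 69.2 CPM in input. EIF4E2, which represses translation with GIGYF2, had 85.3 and 65.6 CPM in the IPs and 76.9 CPM in input, so of the 3 cap-binding genes only EIF4E3 was called. No test compared the paralogs' folds with one another. EIF4EBP1 had 95.6 and 139 CPM in the IPs, on both sides of the 112 CPM in input, unlike EIF4EBP2. The scaffold EIF4G3 had 121 and 135 CPM in the IPs and 104 CPM in input, and EIF4G2, a scaffold that lacks the eIF4E-binding site, 648 and 604 CPM in the IPs and 901 CPM in input, neither called. Among the remaining genes, EIF5, at 271 and 275 CPM in the IPs and 386 CPM in input, and EIF6, an anti-association factor of the large subunit at 32.2 and 59.3 CPM in the IPs and 37.1 CPM in input, were not called.

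Several of these genes have processed pseudogenes or close copies, EIF1, EIF1AX, EIF3E, EIF4A1 and EIF5A among them. How the authors' counting treated reads that match more than 1 place, and strand, is not given in the sources used here, so their levels carry that uncertainty.

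Some initiation factor mRNAs belong to the TOP class, which begins at a C followed by an unbroken pyrimidine run and is translated under control of the growth-signalling kinase mTOR. The 4 members named as TOP mRNAs from background knowledge were EIF3E, EIF3F, EIF3H and EIF4B. All 4 had a negative log2 fold (median -0.45, from -0.53 to -0.38), as had 23 of the 39 members tested, these included. The median of all genes was 0.00. None of the 4 was called, and 1 had an unadjusted p under 0.05 in edgeR. With scaling to library size alone all 4 were positive (0.71 to 0.85) yet under the median gene at 1.24. With intronic reads included EIF3F (0.25) and EIF4B (0.05) also turned positive and EIF3E stayed negative (-0.07). EIF3H, at -0.70, was called lower with those reads (edgeR adjusted p = 0.013). RefSeq transcript starts (GRCh38.p14) were matched for 34 of the 41 members. EIF2S2, EIF3A, EIF3E, EIF3G, EIF3H, EIF3L and EIF4EBP1 are named only. A start on C with at least 4 further C or T, read on the transcribed strand from the first base, was found for 7 members. Counted by start, that was 7 of the members' 49 starts, against 1429 of all 35116 starts in the table (4.07%). The 7 are printed with 15 bases before the start and 15 from it, with the pyrimidine run in capitals:
EIF2S3: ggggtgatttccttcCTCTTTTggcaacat
EIF3D: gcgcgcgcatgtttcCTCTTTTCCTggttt
EIF3F: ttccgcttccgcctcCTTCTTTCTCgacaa
EIF3K: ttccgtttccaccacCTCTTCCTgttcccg
EIF3M: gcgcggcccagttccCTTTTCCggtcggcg
EIF4A2: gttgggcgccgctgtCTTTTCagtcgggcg
EIF4B: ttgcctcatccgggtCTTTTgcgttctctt
The starts of 2 messages called higher are shown for contrast, with no such run and so no capitals:
EIF1: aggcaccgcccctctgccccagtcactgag
EIF5B: gcgcactgagaactcacaccatatgtgtcc
The longest runs, of 10 bases, were those of EIF3D and EIF3F. These 2 messages lay apart in the IP, EIF3D being called higher (log2 fold 0.79) and EIF3F not called (-0.48). On the TMM scale the 7 had a median log2 fold of -0.42 with 6 of them under 0. The 25 other tested members with a matched start had a median of -0.13 with 15 under 0. Calls were 1 higher and 0 lower among the 7, and 2 higher and 5 lower among the 25. Over all genes 16.7% were called higher and 11.4% lower. All 5 members called lower thus had no such run. A match describes these letters only.

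The change was not spread evenly along the mRNAs. In the members pooled, coding sequence held 69.1% and 69.4% of exonic reads in the IPs (69.3% ± 0.1, SD, n = 2) and 58.0% in input (95% exact interval 57.3 to 58.7%). Over all genes noncoding exons held 10.4% and 13.0% of exonic reads in the IPs and 29.1% in input, so shares are set side by side among coding and UTR reads alone. There the coding share was 69.2% and 69.4% in the IPs and 58.1% in input for the members, and 57.2% and 58.9% in the IPs and 46.1% in input for all genes. The eIF3 genes had the largest coding share of the groups with several genes, at 86.3% ± 0.2 in the IPs and 78.5% in input (77.6 to 79.5%). The eIF5 genes had the widest gap, at 58.0% ± 1.6 in the IPs and 30.6% in input (28.5 to 32.8%). EIF5B gave 982 and 176 of their 2184 and 487 exonic reads in the IPs, and 323 of 1864 in input. Most of its reads were coding in each library (792 and 151 in the IPs, 226 in input). The pooled gap thus also holds a change in which gene gave the reads. The eIF1 genes together were at 32.4% ± 4.8 in the IPs and 31.9% in input (28.8 to 35.1%), but EIF1 gave most of their reads and the other two lay the other way. EIF1 had a coding share of 36.2% and 28.9% in the IPs and 39.0% in input. EIF1AX had 21.9% and 19.2% in the IPs and 12.4% in input, and EIF1B 42.2% and 37.5% in the IPs and 26.8% in input, on 26 and 40 reads in IP replicate 2.

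Reads of each gene and region were then tested in 1 edgeR fit over 28825 gene regions, in which 0 stands for the typical region, introns included. Coding sequence was called higher in 21 of 39 members, 54% against 51.2% of all genes, and lower in none, against 0.208% of all genes. The count of lower coding sequences was also 0 at an unadjusted p under 0.05 in edgeR and 0 in DESeq2. The members' median log2 fold in coding sequence was 0.79, and that of all genes 1.02. A call thus sets a coding sequence above the typical region, not above the typical coding sequence. EIF2S3, EIF3B and EIF3L were called yet lay under 1.02, as did several eIF4 and eIF5 genes. The 21 took in all 3 eIF2 genes, 6 of 12 eIF3 genes, 7 of 12 eIF4 genes, 2 of 3 eIF1 and 2 of 3 eIF5 genes and EIF6, and none of the 5 eIF2B genes. DESeq2 called 9 of the 21.

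EIF3A had the highest coding fold, with 3394 and 726 reads in the IPs and 544 in input (log2 fold 2.60 ± 0.41, edgeR adjusted p = 2.15e-09). EIF1 followed with 1160 and 176 reads in the IPs and 234 in input (log2 fold 2.08 ± 0.36), and EIF1B with 79 and 15 reads in the IPs and 19 in input (log2 fold 1.99 ± 0.51). EIF4E, not called over the whole mRNA, was called in its coding sequence with 99 and 14 reads in the IPs and 25 in input (log2 fold 1.80 ± 0.48, edgeR adjusted p = 0.00047). These 4 were above input in both IPs once scaled. DESeq2 called EIF3A and EIF1 here but not EIF1B (DESeq2 adjusted p = 0.058) or EIF4E (DESeq2 adjusted p = 0.083).

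EIF5B stood at 161 and 118 CPM of its coding sequence in the IPs and 43.0 CPM in input (log2 fold 1.71 ± 0.34). The eIF2 alpha and beta messages were close to it. EIF2S1 had 42.8 and 32.0 coding CPM in the IPs and 13.5 in input (log2 fold 1.50 ± 0.38), and EIF2S2 had 74.7 and 32.8 in the IPs and 21.5 in input (log2 fold 1.39 ± 0.35), with a wide gap between its IPs. The eIF2 gamma message EIF2S3 had 134 and 127 coding CPM in the IPs and 73.9 in input (log2 fold 0.83 ± 0.33).

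Of the eIF3 genes, EIF3G, EIF3D and EIF3J, the loosely bound subunit, had coding log2 folds of 1.39, 1.38 and 1.17. In CPM, EIF3G had 53.8 and 60.2 in the IPs and 21.5 in input, EIF3D 102 and 117 in the IPs and 41.7 in input, and EIF3J 42.8 and 32.8 in the IPs and 17.1 in input. EIF3L, an octamer subunit, had 130 and 131 in the IPs and 75.4 in input (log2 fold 0.79), and EIF3B, the peripheral scaffold, 73.9 and 82.9 in the IPs and 46.1 in input (log2 fold 0.76). The peripheral genes thus gave 4 of 5 calls in coding sequence and the octamer 2 of 7, a difference that was not tested.

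Of the eIF4 genes, EIF4G3 had 62.7 and 65.7 coding CPM in the IPs and 25.5 in input (log2 fold 1.33). Both eIF4A helicases were called in coding sequence though not over the whole mRNA, but the 2 fits place 0 differently. The median coding sequence of all genes was at 1.02 here. EIF4A1, EIF4A2, EIF4A3, EIF4EBP1, EIF4E2 and EIF5, though called, lay under it. EIF4A1 had 283 and 265 coding CPM in the IPs and 155 in input (log2 fold 0.83), EIF4A2 had 102 and 72.7 in the IPs and 46.1 in input (log2 fold 0.95) and EIF4A3 had 26.6 and 28.9 in the IPs and 13.9 in input (log2 fold 0.98). EIF4EBP1 had 26.6 and 44.6 in the IPs and 17.1 in input (log2 fold 0.98), and EIF4E2 had 25.8 and 18.0 in the IPs and 11.8 in input (log2 fold 0.95). EIF5 had 68.6 and 65.7 in the IPs and 40.2 in input (log2 fold 0.74), and EIF6 had 12.6 and 30.5 in the IPs and 8.19 in input (log2 fold 1.24), the IPs of EIF6 lying far apart. For all 21 called members both IPs exceeded input. EIF4G2 (log2 fold 0.08) and EIF4EBP2 (-0.24) had the lowest coding values with EIF3I (0.08), and EIF4EBP2 was the sole member under 0 in coding sequence. With no read filter 10 of the 21 were called.

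**Figure D3:**
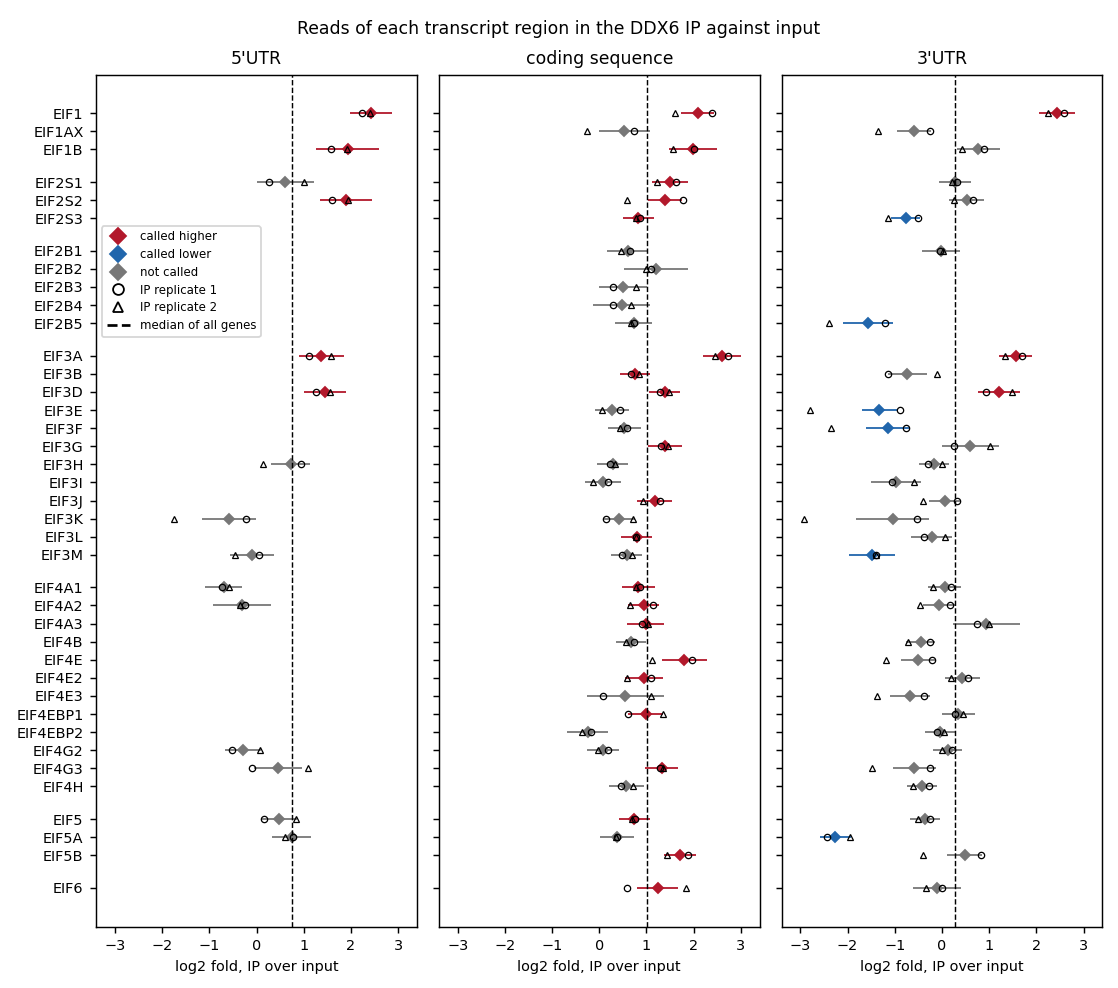
Log2 fold of DDX6 IP over input for reads in the 5′UTR, coding sequence and 3′UTR of each member; diamonds are the edgeR estimate with its standard error, circles and triangles the 2 IPs, and dashed lines the median of all genes in that region. Coding sequences lie at or right of 0 except EIF4EBP2 (-0.24), while 3′UTRs spread from EIF5A (-2.26) to EIF1 (2.44).

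In the 3′UTR the members diverged. Of 36 tested, 3 were called higher, 8.33% against 23.9% of all genes, and 6 lower, 17% against 6.83% of all genes. Their median log2 fold was -0.13, against 0.28 for all genes. The 3 higher were EIF1, EIF3A and EIF3D. EIF1 had 1927 and 399 reads of its 3′UTR in the IPs and 342 in input, the highest member (log2 fold 2.44 ± 0.38, edgeR adjusted p = 2.18e-09). EIF3A had 388 and 78 reads in the IPs and 126 in input (log2 fold 1.56 ± 0.35), and EIF3D 70 and 27 reads in the IPs and 38 in input (log2 fold 1.21 ± 0.45). After scaling, both IPs lay above input for all 3.

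EIF5A was the lowest, with 85 and 31 reads of its 3′UTR in the IPs and 500 in input (log2 fold -2.26 ± 0.33, edgeR adjusted p = 8.11e-11). Its coding sequence, with 163 and 42 reads in the IPs and 134 in input, was not called (log2 fold 0.37 ± 0.36), and neither was its 5′UTR (0.74 ± 0.42). Of the exonic regions of EIF5A, the 3′UTR alone was called lower. Its coding value was still under the median coding sequence of all genes (1.02), since 0 here is the typical region, introns included. Of the other 5, all but EIF2S3 rested on 6 or fewer reads in IP replicate 2. EIF2S3 had 407 and 68 reads in the IPs and 622 in input (log2 fold -0.77), EIF3E, an octamer subunit, 79 and 5 in the IPs and 158 in input (log2 fold -1.33), and EIF3F, an octamer subunit too, 40 and 3 in the IPs and 74 in input (log2 fold -1.15). EIF3M, which closes the octamer, had 23 and 6 reads in the IPs and 69 in input (log2 fold -1.48), and EIF2B5 had 21 and 2 in the IPs and 55 in input (log2 fold -1.57). All 6 were below input in both IPs after scaling. DESeq2, which gave EIF2B5 no adjusted p, and scaling to library size alone each called EIF5A alone among the 6. A minimum of 30 reads left EIF5A and EIF3E called, with EIF3M and EIF2B5 not tested.

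In the 5′UTR only 15 members had enough reads. Of these, 5 were called higher, 33.3% against 33.2% of all genes, and none lower, against 4.49% of all genes (0 also at an unadjusted p under 0.05 in edgeR, and 0 in DESeq2). EIF1 had 116 and 34 reads there in the IPs and 24 in input (log2 fold 2.43 ± 0.45), EIF1B 33 and 11 in the IPs and 10 in input (1.93 ± 0.67), and EIF2S2 48 and 16 in the IPs and 15 in input (1.89 ± 0.56). EIF3D had 85 and 27 in the IPs and 36 in input (log2 fold 1.44 ± 0.44), and EIF3A 64 and 23 in the IPs and 30 in input (1.37 ± 0.47). The 5 were above input in both IPs once scaled, and DESeq2, which gave EIF1B no adjusted p, called EIF1 alone. EIF1, EIF3A and EIF3D were thus called higher in all 3 regions by edgeR. EIF3D was no longer called in the 3′UTR with no read filter (edgeR adjusted p = 0.17) or with DESeq2 (adjusted p = 0.167), nor in the 5′UTR (0.0575 and 0.0924 in the same order). EIF3A was not called in the 5′UTR under these either (adjusted p = 0.108 and 0.142). Introns went the other way as they did for most genes. They were called lower in 34 of 37 members, against 83% of all genes, and higher in none, against 2.57% (0 also at an unadjusted p under 0.05 in edgeR, and 0 in DESeq2).

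Comparing coding sequence with 3′UTR inside each mRNA removes the scaling between libraries. In edgeR's test of that interaction over 6552 genes, the coding fold exceeded the 3′UTR fold in 19 of 36 members, 53% against 29.6% of all genes. It fell short in none, against 0.702% of all genes (0 also at an unadjusted p under 0.05 in edgeR, and 0 in DESeq2). The median difference was 1.10 on the log2 scale for the members and 0.82 for all genes. A call thus sets a difference above 0, not above that of the typical gene. EIF4A1 was called at 0.78, under the median of all genes. By group the calls were 7 of 12 eIF3, 6 of 12 eIF4, 3 of 3 eIF5, 2 of 3 eIF2, 1 of 2 eIF2B and 0 of 3 eIF1 genes, with 2 eIF1 genes at an unadjusted p under 0.05 in edgeR and none called in DESeq2.

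EIF5A had the largest difference, 2.83 and 2.33 in IP replicates 1 and 2 (2.66 ± 0.36, edgeR adjusted p = 9.32e-11), higher than 99.3% of all genes. EIF4E followed at 2.27 and 2.40 (2.31 ± 0.49), then EIF2B5 at 2.02 and 3.15 (2.28 ± 0.53) and EIF3M at 1.96 and 2.07 (2.03 ± 0.42). EIF5A, EIF4E and EIF3M gave like values in both IPs. EIF4G3 gave 1.57 and 2.84 (1.87 ± 0.43), EIF3E 1.35 and 2.86 (1.67 ± 0.36), EIF2S3 1.38 and 1.94 (1.60 ± 0.30) and EIF3B 1.87 and 0.94 (1.54 ± 0.38), all positive in both. In EIF4G3 and EIF3E the value from IP replicate 2 was far above that from IP replicate 1. At the other end, EIF1 was at -0.19 and -0.63 in the IPs (-0.38 ± 0.31), under all but 5.42% of all genes, and EIF4EBP2 and EIF4G2 were at -0.17 and -0.03, none of them called. DESeq2 called 12 of the 19 and gave EIF2B5 no adjusted p.

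**Figure D4:**
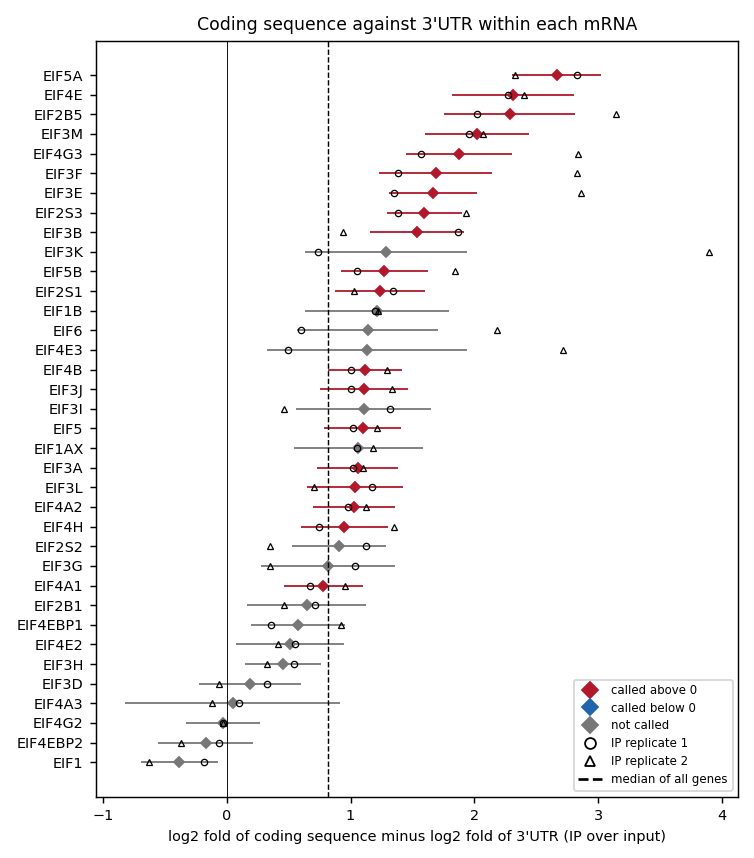
Log2 fold of coding sequence minus log2 fold of 3′UTR, DDX6 IP over input, for the 36 members tested, ordered by size; diamonds are the edgeR estimate with its standard error, circles and triangles the 2 IPs, and the dashed line the median of all genes (0.82). EIF5A (2.66) is at the top and EIF1 (-0.38) at the bottom.

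The authors' peak lists place the signal within the genes (hg19). Each line gives a log2 fold and a -log10 p of IP over input that are the authors' own, and a line is called significant here at 3 or more in both, as in the eCLIP protocol. In IP replicate 1, 71 of the 821 lines on members were significant (8.65%, against 11.5% of all lines), and in IP replicate 2, 30 of 477 (6.29%, against 12.9%). At least 1 significant line was found for 11 of 41 members in replicate 1 (26.8%, against 31.6% of genes with any line) and 10 of 40 in replicate 2 (25%, against 34.6%). The members' shares were at or below the background. Together 16 members had one in either list (39%, against 39.4% of genes with a line in either). Of the 40 members with lines in both lists, 5 had a significant one in each (12.5%, against 24.4% of such genes). In 3 of them, EIF1, EIF1B and EIF3A, significant lines of the 2 lists overlapped on the same strand (7.5%, against 13.2%). No eIF2B gene had one.

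EIF3A carried the strongest peaks. It had 30 significant lines in IP replicate 1 and 10 in replicate 2, which join into 14 and 8 sites when lines up to 10 bases apart are merged, and 12 lines in the authors' reproducible list of 1587. Of these 12, 11 were in coding sequence and 1 in the 3′UTR. The highest lay on the minus strand at chr10:120809488-120809498, with a log2 fold of 6.43 and rank 51 in that list, and touched the next at chr10:120809460-120809487 (6.33). A second pair stood nearby at chr10:120810033-120810034 (5.97) and chr10:120810035-120810127 (4.91). The other 8 were between 3.13 and 3.77, with 5 of them close together from chr10:120832406 to 120832970, nearer to the 5′ end. EIF3A alone among the members with a line in both lists passed a stricter rule of 5 for -log10 p and 4 for log2 fold with overlap.

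EIF1 had 7 lines in the reproducible list, all in its 3′UTR on the plus strand between chr17:39847293 and 39847799, with log2 folds from 3.21 to 3.76. The highest was chr17:39847499-39847621. In IP replicate 1 the gene had 16 significant lines, 8 in coding sequence and 8 in the 3′UTR, while the 4 in replicate 2 were all in the 3′UTR. In coding sequence replicate 2 was under the threshold. For EIF1B the overlapping peaks crossed the start of the coding sequence instead, at chr3:40351347-40351391 and chr3:40351392-40351463 in replicate 1 (log2 fold 3.21 in both) and chr3:40351347-40351384 and chr3:40351385-40351449 in replicate 2 (3.45 and 3.64). EIF1B was not in the reproducible list.

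**Figure D5:**
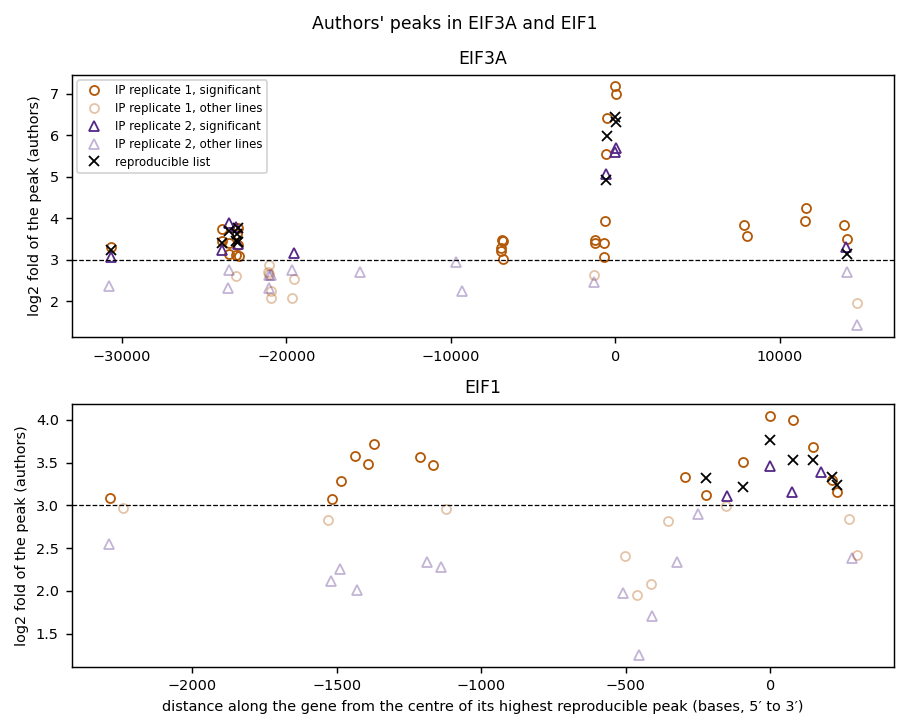
The authors' log2 fold of each peak line in EIF3A and EIF1 against the distance in bases of its centre from that of the gene's highest reproducible peak, 5′ to 3′; circles are IP replicate 1, triangles IP replicate 2 (pale where not significant), crosses the reproducible list, and the dashed line the threshold of 3. EIF3A has 2 dense clusters, the higher one reaching 6.43 in the reproducible list, and EIF1 has its 7 reproducible peaks in 1 cluster in the 3′UTR.

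The other members had few peaks. EIF5B had 6 significant lines in replicate 1, 5 of them in coding sequence, and 5 in replicate 2, all coding, but none overlapped between the lists. EIF4G3 had 2 and 3 coding lines that did not overlap either. EIF4E had 4 coding lines in replicate 1, the highest at chr4:99823041-99823129 on the minus strand (log2 fold 4.26), and none in replicate 2. EIF2S1 had 3 lines and EIF2S2 1 in replicate 1 alone. EIF4G1, the main eIF4G scaffold, had 50 and 35 lines, of which 3 in replicate 1 were significant, 2 in the 5′UTR at chr3:184032366-184032446 and chr3:184032447-184032463 (log2 fold 3.45 and 3.67) and 1 in coding sequence at chr3:184040922-184041030 (3.19). EIF5A, low over its mRNA, had no significant line in either list. Lists of unequal depth differ in how many lines pass, so a peak in 1 list alone is no difference between the IPs.

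Genes that act on initiation without being core factors were set beside the members. Of 34 such genes 31 were tested, and 5 were called higher (16.1%, against 16.7% of all genes) and 1 lower (3.23%, against 11.4%), with a median log2 fold of -0.02. Counts under the alternatives ran from 3 to 24 higher and from 0 to 3 lower, with 3 higher and 0 lower in DESeq2. The 2 highest were regulatory subunits of the phosphatase that reverses eIF2 alpha phosphorylation. PPP1R15A had 169 and 163 CPM in the IPs and 58.8 CPM in input (log2 fold 1.50 ± 0.27, edgeR adjusted p = 1.13e-05), and PPP1R15B had 438 and 389 CPM in the IPs and 174 CPM in input (log2 fold 1.25 ± 0.27). GIGYF2, the partner of eIF4E2, had 166 and 131 CPM in the IPs and 65.6 CPM in input (log2 fold 1.20 ± 0.27). DENR, a factor of reinitiation and ribosome recycling, was called lower, with 90.3 and 59.3 CPM in the IPs and 145 CPM in input (log2 fold -0.89 ± 0.26, edgeR adjusted p = 0.0055). METAP2 and EIF2AK3, which encodes the stress kinase PERK, were the other two called higher. IP and input did not overlap for any of the 4 with values.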

How the data were processed

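eCLIP libraries of MOLM-13 cells were analysed: 2 DDX6 IPs and 1 input. The build was hg19 and the tools named were cutadapt, STAR, SAMtools and UMI-tools, per the submitters' processing notes. For the counter, annotation, peak caller and strand setting, nothing is stated in the sources used here. What the authors deposited were raw counts by gene and region, 1 table a library, and peak lists whose values are the authors' -log10 p and log2 fold of IP over input. Lines of totals and intergenic reads (4.05% and 3.78% of reads in the IPs, 2.63% in input) were left out of fits.

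Exonic counts (coding sequence, UTRs and noncoding exons) were summed per gene. Genes, and gene regions, with at least 10 reads in at least 2 libraries were tested with edgeR 4.0.16 (quasi-likelihood test, TMM; R 4.3.3), IP against input, with Benjamini-Hochberg adjustment over all features and calls at 0.05. The spread comes from the 2 IPs, with 1 residual degree of freedom moderated over genes, and the lone input is assumed to vary like them (coefficient of variation 16.5% in the gene fit). In the gene fit the prior degrees of freedom were 75.85, so a gene's own gap between its IPs had little weight in its SE and p-value. In the region and within-mRNA fits the prior degrees of freedom were infinite. There a row's own gap between its IPs had no weight, so its SE and p-value do not measure that gap. CPM are not length-corrected. A self-test on simulated counts was run. Alternatives were other scalings, filters and read sums, DESeq2 1.42.0, each IP alone, and stricter peak rules; exonic reads without TMM, and all alternatives of the other initiation genes, were added after seeing the data. Identifiers were named through a symbol table (28576 of 29754 matched). Named in the text are all called members, the highest and lowest of each group, paralogs, members of the reproducible list and the 8 smallest p-values of the within-mRNA test. Members and lists were chosen with earlier results of these data known. Intervals cover counting error only.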

Additional observations from a re-analysis of the deposited data

How the results depend on the processing

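No paired analysis was possible because the labels give the input no replicate number. The input is 1 library, so it has no replicate check, and replicate 2 is the shallower IP. EIF1 and EIF3A over the whole mRNA were called under every alternative run (highest adjusted p 0.0072 and 0.0065 over 8 alternatives); every other called member lost its call under at least 1. EIF5A was not called with library size alone or with intronic reads included (-0.41). Library size alone, which puts the median gene at 1.24, makes 2 changes at once: it leaves out TMM and divides by all counted reads, of which exonic ones were 67.6% and 62.6% in the IPs and 30.7% in input. With exonic reads alone as library size and no TMM, chosen after seeing the data, the median gene was at 0.15, with 7 members called higher and 3 lower, and 2170 and 883 of all genes. The medians were then 0.23 for eIF2, -0.040 for eIF3 and -0.36 for eIF5, and EIF2B3 (0.015), EIF3B (0.054), EIF3J (0.013) and EIF4A2 (0.098) changed sign. The cause of the other shifts was not tested.

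Members called higher over the mRNA were 5, and 29 with library size alone, 2 with no read filter, 3 at 30 reads or more, 2 with DESeq2 and 8 with intronic reads. Members called lower were 5, and 0, 2, 4, 1 and 8 in the same order. Over all genes DESeq2 called 679 higher and 256 lower, against 1739 and 1188 in edgeR, and library size alone 6990 and 141. Coding sequence was higher in 34 members with library size alone, 10 with no filter and 9 with DESeq2 (main 21). The 5′UTR was higher in 9 with library size alone and 1 with DESeq2 (main 5), and lower in 1 with no filter (main 0). The 3′UTR was higher in 11 with library size alone (main 3), and lower in 1 with library size alone, 2 at 30 reads and 1 with DESeq2 (main 6). The coding fold exceeded the 3′UTR fold in 12 members with DESeq2 (main 19). The other genes acting on initiation, whose alternatives were also chosen after seeing the data, were called higher in 24 with library size alone, 8 with exonic reads and no TMM, and 3 each with no filter, at 30 reads and with DESeq2 (main 5). They were called lower in 0 with library size alone and with DESeq2, and 3 each with intronic reads and with coding and 3′UTR reads (main 1). Under the stricter peak rule 5, 2 and 1 members had a peak in replicate 1, in replicate 2 and in both with overlap (main 11, 10 and 3).

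Group medians with library size alone were 2.02 for eIF1, 1.32 for eIF2, 0.997 for eIF2B, 1.05 for eIF3, 1.03 for eIF4, 0.73 for eIF5 and 1.42 for eIF6. With intronic reads they were 1.74, 0.56, 0.11, 0.15, -0.47 and 0.075 for eIF1 to eIF5 in that order, and with coding and 3′UTR reads alone 0.62 for eIF1 and -0.60 for eIF5. Leaving out either IP gave 0.64 to 0.84 for eIF1, 0.04 to 0.13 for eIF2, -0.34 to 0.0056 for eIF2B, -0.26 to -0.16 for eIF3, -0.42 to -0.17 for eIF4, -0.51 to -0.49 for eIF5 and -0.20 to 0.66 for eIF6.

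Log2 folds that changed sign with library size alone were those of EIF1AX (0.34), EIF2S3 (0.69), EIF2B1 (0.88), EIF2B3 (1.10), EIF2B4 (0.997), EIF2B5 (0.79), EIF3B (1.14), EIF3E (0.81), EIF3F (0.76), EIF3H (0.85), EIF3I (0.49), EIF3J (1.11), EIF3K (0.82), EIF3M (0.99), EIF4A2 (1.19), EIF4B (0.71), EIF4E (0.87), EIF4E3 (0.13), EIF4EBP2 (0.59), EIF4G2 (0.71), EIF4H (0.52) and EIF5 (0.73). With intronic reads they were EIF2S3 (0.12), EIF2B1 (0.11), EIF2B5 (0.25), EIF3B (0.15), EIF3F (0.25), EIF3I (0.11), EIF3J (0.11), EIF3M (0.37), EIF4A1 (-0.90), EIF4B (0.053), EIF4EBP1 (-0.10), EIF4EBP2 (0.32), EIF4G3 (-1.38) and EIF5 (0.075). At 30 reads they were EIF3L (-0.0099), EIF4A1 (-0.052), EIF4E2 (-0.073) and EIF4EBP1 (-0.057). With coding and 3′UTR reads they were EIF4E2 (-0.0013) and EIF4EBP1 (-0.011), and for EIF4E2 also DESeq2 (-0.025) and DESeq2 size factors (-0.0034).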
